A study of Homo sapiens with 44 samples.

Results

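Interferon-stimulated effector genes encode the proteins that act against viruses once interferon has been sensed. Of them 51, chosen by name with earlier results of these data known, were followed through every RNA library of the series. Their values were read for 49 of the 51 among 18797 genes in the GAS41 experiment, where IFI16 and RTP4 were not analysed, and for all 51 among 21159 genes in the doxorubicin experiment. The series concerns repression of transcription by GAS41, a chromatin reader whose gene is YEATS4, and all cells are HCT116, a human colon cancer line with intact p53. RNA came from 18 libraries in 6 groups of 3, and the 26 ChIP and input samples were not analysed here. GAS41-KO cells carry a knockout of GAS41, and mut rescue and wt rescue are GAS41-KO cells that stably express GAS41 fused to GFP and Flag, either with the YEATS domain substitutions Y74A and W93A (mut rescue) or with the normal sequence (wt rescue). WT cells were not edited. In the other experiment, cells were given 500 nM doxorubicin, a topoisomerase poison, or its solvent DMSO, and the labels give no treatment time. The labels call the 3 libraries of a group biological replicates but do not say whether an edited group is 1 clone, so a p-value measures the spread between these libraries and not between clones.

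Type I and type III interferons bind receptors at the cell surface, and kinases at the receptors activate transcription factors. A complex that contains STAT2 and IRF9 then enters the nucleus and binds the interferon-stimulated response element, a DNA motif built from repeated GAAA blocks. Genes under such elements include RNA sensors, which can start a further round of interferon production, and the effectors described here. Without interferon, many of the effectors have a low basal level in epithelial cells.

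The response element core is shown because most of these promoters hold it. RefSeq promoter windows (build GRCh38.p14, 250 bases before to 50 bases after a gene's start) were found for 43 of the 51 genes. The core searched for was a GAAA block, any 2 bases and another GAAA block, or TTTC, any 2 bases and TTTC on the other strand. It was in a window of 30 of these 43 genes (69.8%), against 1195 of 27305 genes with a window in the table (4.38%) and 411 of 10483 genes tested in the GAS41 experiment (3.92%). Counted by window, since a gene can have several starts, 35 of 61 windows of these genes held it (57.4%), against 1255 of 35116 windows in all (3.57%). A match is a run of letters and not a measured binding site. Capitals mark the matches in 7 promoters, written 5′ to 3′ on the gene's own strand and ending before the start.
IFI6: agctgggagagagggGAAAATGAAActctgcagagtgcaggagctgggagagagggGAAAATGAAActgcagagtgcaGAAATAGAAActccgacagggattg
IFI27: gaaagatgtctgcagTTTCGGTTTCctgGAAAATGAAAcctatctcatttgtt
IFIT1: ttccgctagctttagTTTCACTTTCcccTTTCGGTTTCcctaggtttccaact
SAMD9: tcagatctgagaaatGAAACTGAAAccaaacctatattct
IFITM1: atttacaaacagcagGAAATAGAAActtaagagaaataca
ISG15: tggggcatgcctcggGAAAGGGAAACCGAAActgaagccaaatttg
BST2: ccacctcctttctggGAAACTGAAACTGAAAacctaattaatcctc
These stretches lie at chr1:27672261-27672363 (minus strand) for IFI6, chr14:94110613-94110665 (plus strand) for IFI27, chr10:89392492-89392544 (plus strand) for IFIT1, chr7:93118091-93118130 (minus strand) for SAMD9, chr11:313985-314024 (plus strand) for IFITM1, chr1:1013369-1013414 (plus strand) for ISG15 and chr19:17405730-17405775 (minus strand) for BST2. IFI6 has 3 matches, a repeated unit among them. In ISG15 and BST2 the 2 matches overlap by a GAAA block, the stretches of IFI27 and IFIT1 have 2 separate matches each, and those of SAMD9 and IFITM1 have 1. The window of IFITM1 holds 1 further match after the start, which is not printed. The first 6 genes were among those with large changes in GAS41-KO or with doxorubicin, and BST2 is the one that the rescue lines set apart.

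YEATS4 was checked first. Its transcript stood at 386, 337 and 325 normalized reads in GAS41-KO, 2551, 2358 and 2538 in mut rescue, 2887, 3499.6 and 3372 in wt rescue and 625, 608 and 621 in WT. Normalized reads are reads divided by the library's size factor, both recovered from the deposited values. The transcript was 1.77-fold lower in GAS41-KO than in WT (log2 change -0.64 with SE 0.07, adjusted p = 2.09e-06), and the edited site is not given in the labels, so a remaining transcript says nothing about protein. Each of the 12 GAS41 libraries held 16857982 to 18546135 recovered reads, and each of the 6 doxorubicin and DMSO libraries 17442035 to 18894312. Replicate 1 of wt rescue stood farthest from its group, with a median absolute log2 difference of 0.127 from the other 2 libraries over tested genes, where the other 11 libraries of that experiment gave 0.0436 to 0.117. Keratins were expressed throughout, with KRT8 at 25483 to 45084 normalized reads in the GAS41 experiment, while VIL1 and LGALS4, markers of differentiated gut epithelium, stayed at or under 2.97 in it. The summed level of 14 blood and immune markers, 9 of them read in these libraries, was 59.4 to 75.8 in GAS41-KO, 44.3 to 53.9 in mut rescue, 33.0 to 34.9 in wt rescue and 43.0 to 45.5 in WT, and the markers of plasmacytoid dendritic cells, which make interferon, summed to at most 4 in any library. PTPRC, which marks all white blood cells, was at 0 in mut rescue, wt rescue and WT and at most 2.00 in GAS41-KO, and the part of these marker levels in the results was not tested.

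Loss of GAS41 went with a higher level of every effector gene that could be tested. Of 47 tested genes, 47 were higher in GAS41-KO than in WT and 0 were lower, where 26% of all 14505 tested genes were called higher and 26.6% lower (limma on the deposited log2 values, adjusted p under 0.05). A gene was tested when at least 3 libraries had at least 10 reads. Over the 47 genes the median log2 change was 1.397, against -0.01 over all tested genes, and the changes ran from 0.36 for OAS2 to 4.71 for IFI6. The 3 GAS41-KO libraries lay above the 3 WT libraries for each of the 47 genes, as they did for 33.7% of all tested genes. The deposited scale compresses changes of genes with few reads, so folds of mean normalized reads are given beside log2 changes. The folds ran from 1.54 for TRIM14 to 306 for OAS1 over 46 genes, with a median of 4.18, and 13 genes differed by more than 10-fold. IFI44L has no fold here, since WT had 1 read over its 3 libraries.

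Of these 47 genes, 7 reached 10 reads in fewer than 3 of the 6 WT and wt rescue libraries and so entered the test through the lines in which they were high. They are EPSTI1, IFI27, IFI44, IFI44L, OAS1, OAS2 and RSAD2. Without them 40 of 40 genes were called higher, with a median log2 change of 1.42. A pair of genes in the table were not tested, MX2 with 0 to 10 reads per library and SAMD9L with 0 to 4. In bulk RNA, more cells that express a gene and more RNA in each cell cannot be told apart.

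**Figure D1:**
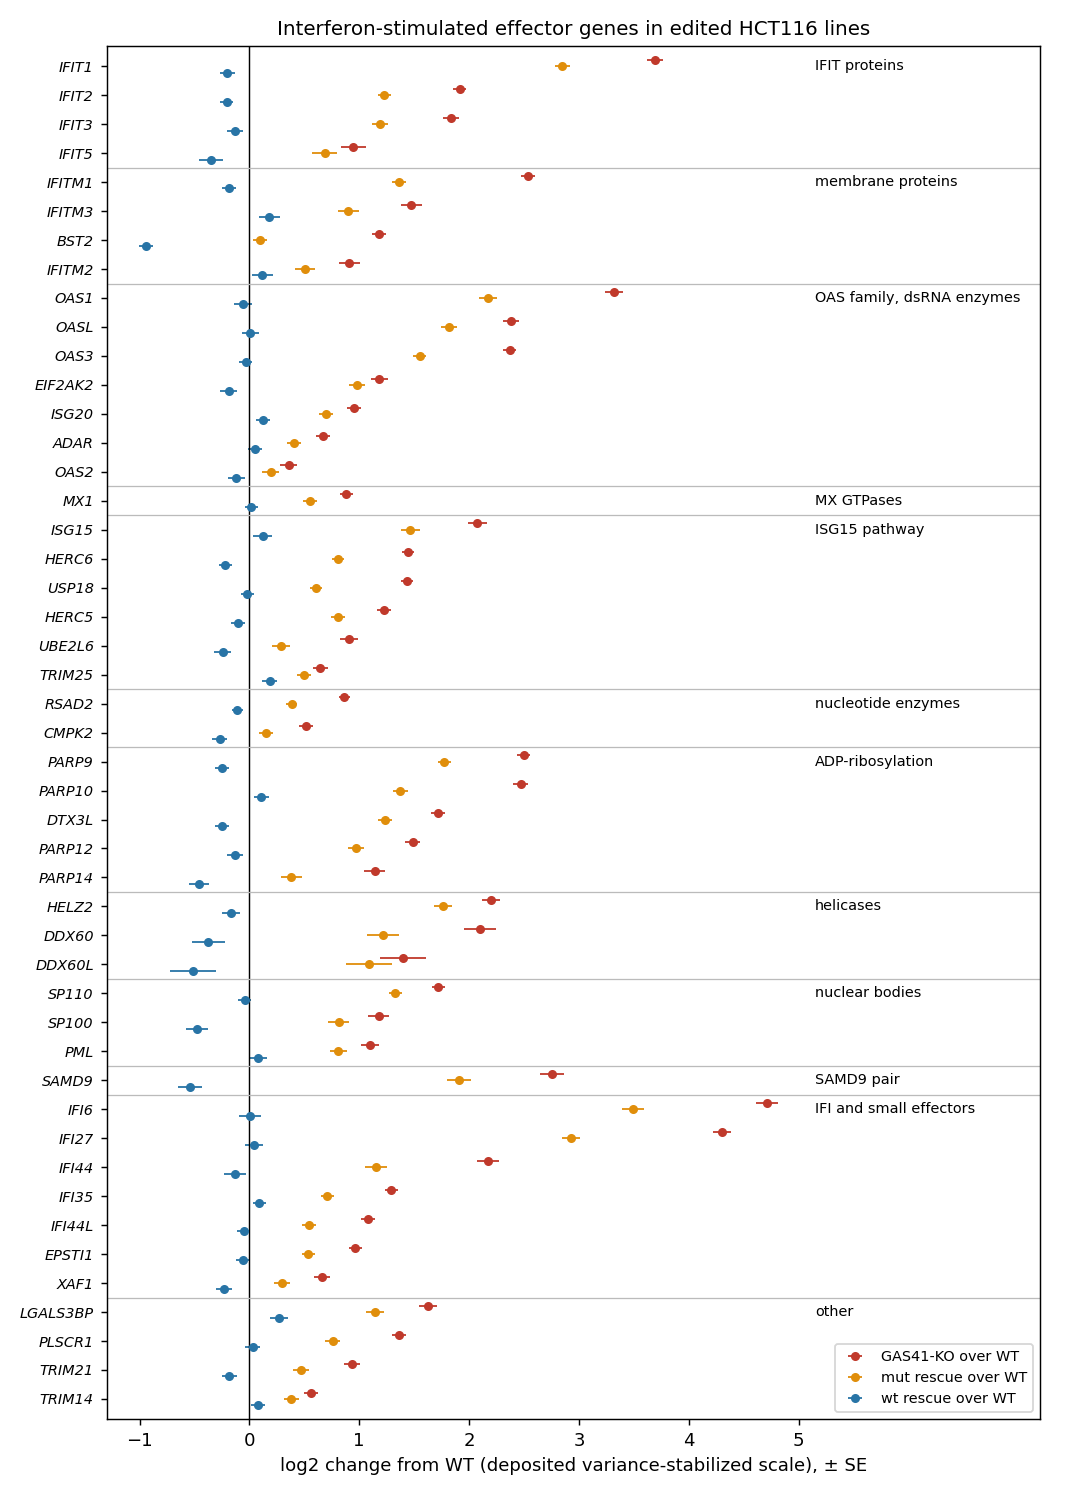
Log2 change from WT on the deposited scale (x axis, bars: SE, n = 3 libraries per group) of the 47 tested effector genes, grouped by role, for GAS41-KO, mut rescue and wt rescue. GAS41-KO changes lie between 0.36 and 4.71, mut rescue changes stand below them for each gene, and wt rescue changes lie between -0.94 for BST2 and 0.27 for LGALS3BP.

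The IFIT proteins bind foreign RNA and hold back its translation, and their genes form a cluster on chromosome 10. IFIT1, which grips RNA whose cap lacks a methyl mark, had 2737, 2445 and 2496 normalized reads in GAS41-KO, 1413, 1229 and 1439 in mut rescue, 52.8, 62.6 and 64.0 in wt rescue and 91.6, 75.5 and 80.6 in WT. Its GAS41-KO and mut rescue libraries stood far above the other 6, with no overlap between GAS41-KO and mut rescue. The GAS41-KO mean was 31.0-fold that of WT (log2 change 3.69 with SE 0.07, adjusted p = 1.12e-15). IFIT2, a partner of IFIT1, had 481, 464 and 448 in GAS41-KO, 244, 243 and 229 in mut rescue, 35.9, 21.9 and 25.8 in wt rescue and 43.9, 44.4 and 41.7 in WT. It was 10.7-fold higher in GAS41-KO than in WT (adjusted p = 2.26e-13), and IFIT3, which stabilizes IFIT1, was 11.1-fold higher, at 391.5 ± 17.2 against 35.1 ± 7.71 (SD, n = 3 each). IFIT5, which binds RNA with a triphosphate end, changed least of the group, with 1262, 1161 and 1139 in GAS41-KO, 974, 866 and 1073 in mut rescue, 549, 317 and 362 in wt rescue and 542, 558 and 542 in WT. Its level was 2.17-fold higher in GAS41-KO (log2 change 0.95 with SE 0.11, adjusted p = 3.48e-06), and wt rescue replicate 1 stood apart from the other wt rescue libraries and within the WT range.

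IFITM proteins sit in cell membranes and block the fusion of entering viruses, and BST2, known as tetherin, holds budding virus at the cell surface. IFITM1 had 558, 534 and 579.6 normalized reads in GAS41-KO, 195, 173 and 161 in mut rescue, 6.97, 8.34 and 8.26 in wt rescue and 10.5, 18.9 and 18.0 in WT. It was 35.2-fold higher in GAS41-KO than in WT (log2 change 2.53 with SE 0.06, adjusted p = 1.63e-14), the widest difference of the IFITM genes. IFITM3 already had a substantial level in WT, with 6908, 7165 and 6929 in GAS41-KO, 4597, 5682 and 3857 in mut rescue, 2725, 2682 and 2888 in wt rescue and 2296, 2528 and 2443 in WT, and was 2.89-fold higher in GAS41-KO (adjusted p = 3.49e-09). IFITM2 changed least, with 1500.5, 1512 and 1544 in GAS41-KO, 1040.1, 1358 and 974 in mut rescue, 751, 798 and 904 in wt rescue and 703, 815 and 709.7 in WT, and was 2.05-fold higher (adjusted p = 7.21e-07). The IFITM genes are closely similar neighbours on chromosome 11, so how the authors' counting divided reads among them is uncertain. BST2 was 4.03-fold higher in GAS41-KO (log2 change 1.18 with SE 0.06, adjusted p = 2.06e-10), and its rescue values are given with the rescue lines.

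OAS enzymes make short oligoadenylates on double-stranded RNA and so switch on RNase L. OAS1 had 766, 759 and 799.8 normalized reads in GAS41-KO, 307, 265 and 259 in mut rescue, 0, 4.17 and 2.06 in wt rescue and 4.77, 1.89 and 0.949 in WT, near 0 in WT and wt rescue and high in the other lines. Its GAS41-KO mean was 306-fold that of WT, which rests on 8 WT reads in all (log2 change 3.32 with SE 0.08, adjusted p = 1.46e-14). OASL, a relative that has lost the enzymatic activity and works with the RNA sensor RIG-I, had 653, 643 and 577 in GAS41-KO, 361, 420.1 and 353 in mut rescue, 27.9, 44.9 and 29.9 in wt rescue and 38.2, 27.4 and 34.2 in WT. It was 18.8-fold higher in GAS41-KO (log2 change 2.38 with SE 0.07, adjusted p = 2.26e-13). OAS3, which prefers long double-stranded RNA, stood at 9003 ± 170.3 in GAS41-KO and 1618 ± 17.0 in WT (SD, n = 3 each), 5.57-fold apart (adjusted p = 1.63e-14). OAS2 changed least on the log2 scale, which compresses its few reads, with 14.97, 24.7 and 27.03 in GAS41-KO, 8.98, 10.98 and 21.1 in mut rescue, 3.98, 4.17 and 1.03 in wt rescue and 6.68, 3.78 and 7.59 in WT, so its GAS41-KO and mut rescue libraries overlapped. It was 3.70-fold higher in GAS41-KO than in WT (log2 change 0.36 with SE 0.08, adjusted p = 0.000957).

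Other RNA enzymes rose less than OAS1, OASL and OAS3. EIF2AK2, which encodes the translation-stopping kinase PKR, was 2.41-fold higher in GAS41-KO than in WT, at 3363 ± 39.6 against 1396 ± 47.8. ADAR, which edits adenosines in double-stranded RNA and keeps the cell's own RNA from being sensed, was 1.60-fold higher, at 12149.7 ± 222 against 7595 ± 258. ISG20, an exonuclease for single-stranded RNA, was 4.37-fold higher, at 162 ± 3.65 against 37.0 ± 3.69 (all SD, n = 3 each). MX1, a GTPase that traps viral nucleocapsids, had 81.8, 81.2 and 81.1 normalized reads in GAS41-KO, 46.9, 40.9 and 51.3 in mut rescue, 10.96, 10.4 and 13.4 in wt rescue and 6.68, 15.1 and 11.4 in WT. Its GAS41-KO libraries were nearly equal, and their mean was 7.36-fold that of WT (log2 change 0.88 with SE 0.06, adjusted p = 4.81e-09). MX2, its neighbour on chromosome 21, was not tested and had 9.98, 7.92 and 4.004 in GAS41-KO, 1.99, 0.998 and 2.01 in mut rescue, 0 in each wt rescue library and 0, 0.944 and 0 in WT.

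**Figure D2:**
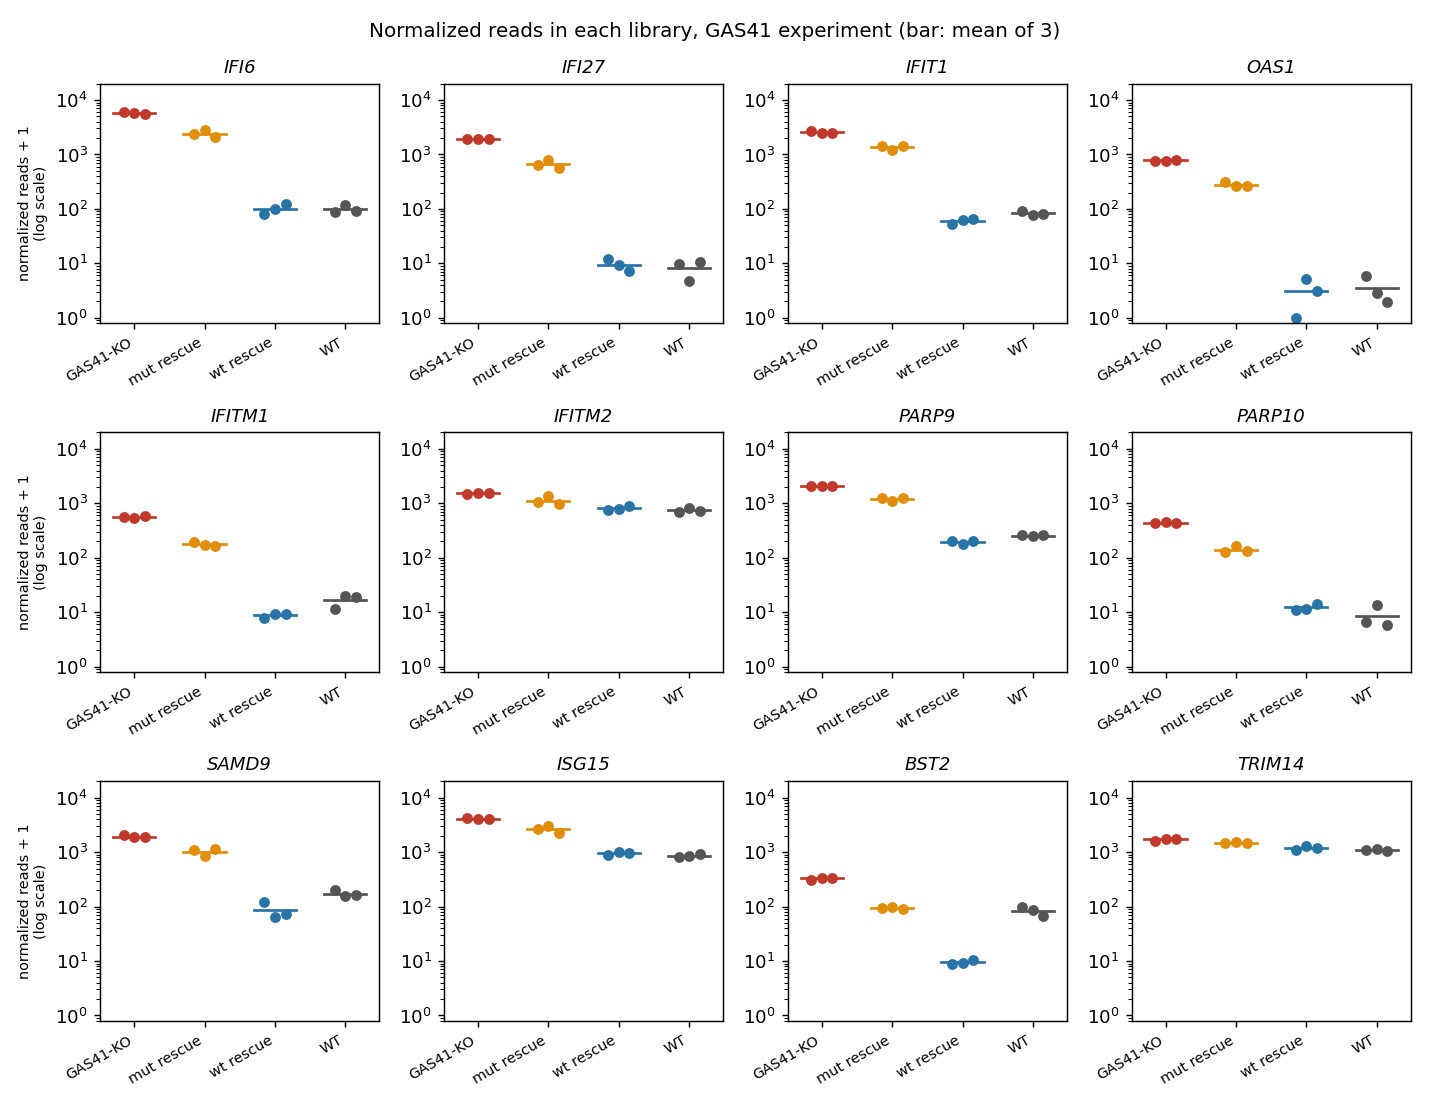
Normalized reads plus 1 (y axis, log scale) in each of the 12 libraries of the GAS41 experiment for 12 effector genes, with groups on the x axis, points for libraries and bars for the mean of 3. GAS41-KO libraries are highest in each panel, mut rescue libraries lie between GAS41-KO and WT except for BST2, where they overlap WT and wt rescue lies far below WT.

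ISG15 is a ubiquitin-like protein that is attached to other proteins, with UBE2L6 and HERC5 as its human conjugating enzymes and USP18 as the protease that removes it. ISG15 had 4304, 4025 and 4014 normalized reads in GAS41-KO, 2628, 3064 and 2283 in mut rescue, 895, 987 and 976 in wt rescue and 804, 856 and 935 in WT, and the groups did not overlap except wt rescue and WT. It was 4.76-fold higher in GAS41-KO than in WT (log2 change 2.07 with SE 0.09, adjusted p = 8.66e-12). HERC6, the relative that serves as the main ISG15 ligase in mouse, had 669, 629.5 and 645 in GAS41-KO, 357, 362 and 385 in mut rescue, 107, 122 and 131 in wt rescue and 155, 155 and 162 in WT and was 4.12-fold higher in GAS41-KO (adjusted p = 5.00e-12). Its neighbour HERC5 was 2.90-fold higher and UBE2L6 2.26-fold higher. USP18, which also damps signalling at the type I interferon receptor, was 4.18-fold higher, at 611 ± 26.8 against 146 ± 2.68 (SD, n = 3 each). TRIM25, a ubiquitin ligase that activates RIG-I, changed least, with 6742, 6592 and 6779.6 in GAS41-KO, 5962, 5891 and 6200.1 in mut rescue, 4319.7, 5165 and 5018 in wt rescue and 4287, 4181 and 4208 in WT. That was 1.59-fold higher in GAS41-KO than in WT (log2 change 0.65 with SE 0.07, adjusted p = 5.11e-07).

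RSAD2, known as viperin, makes a nucleotide that ends viral RNA chains, and its neighbour CMPK2 supplies the nucleotide precursor. RSAD2 had 63.9, 56.4 and 64.1 normalized reads in GAS41-KO, 21.9, 22.9 and 22.1 in mut rescue, 2.99, 2.09 and 3.10 in wt rescue and 5.73, 5.67 and 4.74 in WT, 11.4-fold higher in GAS41-KO than in WT (log2 change 0.86 with SE 0.05, adjusted p = 5.67e-10). CMPK2 had 65.8, 61.4 and 82.1 in GAS41-KO, 32.9, 38.9 and 34.2 in mut rescue, 11.95, 6.26 and 14.5 in wt rescue and 26.7, 26.4 and 20.9 in WT, 2.83-fold higher in GAS41-KO (log2 change 0.51 with SE 0.07, adjusted p = 7.28e-06). Both had few reads in any line.

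ADP-ribosylation enzymes label proteins and nucleic acids with ADP-ribose. PARP9, which works as a pair with the ubiquitin ligase DTX3L, had 2042, 2112 and 2076 normalized reads in GAS41-KO, 1266, 1099.5 and 1240.4 in mut rescue, 199, 180.5 and 205 in wt rescue and 259, 246 and 259 in WT. It was 8.16-fold higher in GAS41-KO than in WT (log2 change 2.50 with SE 0.06, adjusted p = 1.51e-14). DTX3L, the adjacent gene, was 4.18-fold higher, at 1496 ± 56.6 against 358 ± 5.72 (SD, n = 3 each). PARP10, an enzyme that adds single ADP-ribose units, had 440.0, 449 and 431 in GAS41-KO, 128, 164 and 131 in mut rescue, 9.96, 10.4 and 13.4 in wt rescue and 5.73, 12.3 and 4.74 in WT, and its GAS41-KO libraries stood 58.1-fold above WT (log2 change 2.47 with SE 0.07, adjusted p = 5.86e-14). PARP12, a Golgi and stress-granule enzyme, was 3.52-fold higher. PARP14 changed least of this group, with 1555, 1489 and 1526 in GAS41-KO, 861, 736 and 936 in mut rescue, 504, 349 and 385 in wt rescue and 634, 560.0 and 647 in WT, 2.48-fold higher in GAS41-KO (adjusted p = 5.16e-08).

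Among the helicases, HELZ2, a nuclear coactivator, had 2388, 2641 and 2537 normalized reads in GAS41-KO, 1674, 2067 and 1720.3 in mut rescue, 395, 377 and 351 in wt rescue and 390.5, 492 and 427 in WT. It was 5.78-fold higher in GAS41-KO than in WT (log2 change 2.20 with SE 0.08, adjusted p = 2.22e-12). DDX60, which has been linked to RNA sensing, had 1349.8, 1289.8 and 1277 in GAS41-KO, 666, 541 and 729 in mut rescue, 230.1, 78.2 and 107 in wt rescue and 215, 191 and 200.2 in WT and was 6.47-fold higher in GAS41-KO (log2 change 2.099 with SE 0.15, adjusted p = 8.56e-09). Its adjacent paralog DDX60L had 1926, 1981 and 1895 in GAS41-KO, 1623, 1271 and 1746 in mut rescue, 779.9, 238 and 346 in wt rescue and 637, 619 and 677 in WT and was 3.002-fold higher (log2 change 1.397 with SE 0.21, adjusted p = 4.00e-05). In both genes wt rescue replicate 1 stood far above the other wt rescue libraries, and the split of reads between these paralogs is uncertain.

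SP100 and PML build nuclear bodies that restrict viral DNA, and SP110 belongs to the SP100 family. SP110 had 817, 852 and 819 normalized reads in GAS41-KO, 601, 569.7 and 623 in mut rescue, 139, 150.2 and 172 in wt rescue and 169.9, 161 and 154 in WT, 5.13-fold higher in GAS41-KO than in WT (log2 change 1.72 with SE 0.06, adjusted p = 9.59e-13). SP100 had 2226, 2075 and 2042 in GAS41-KO, 1717, 1448 and 1671 in mut rescue, 707, 459 and 575 in wt rescue and 832, 843 and 881 in WT, 2.48-fold higher (adjusted p = 5.54e-08). PML had 1090.5, 1147 and 1229 in GAS41-KO, 843, 1075 and 853 in mut rescue, 501, 508 and 483 in wt rescue and 429.6, 494 and 469.6 in WT, 2.49-fold higher (adjusted p = 8.53e-09). SAMD9, a restriction factor for poxviruses, had 2051, 1878 and 1859.8 in GAS41-KO, 1074, 837 and 1124 in mut rescue, 123, 63.6 and 72.3 in wt rescue and 199, 154 and 164 in WT, and its GAS41-KO mean was 11.2-fold that of WT (log2 change 2.76 with SE 0.11, adjusted p = 5.69e-12). Its neighbour SAMD9L had at most 4 reads in a library and was not tested.

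The largest log2 changes were in the IFI group of small effectors. IFI6, a membrane protein of the endoplasmic reticulum and mitochondria that limits flaviviruses, had 6089, 5766 and 5545 normalized reads in GAS41-KO, 2376, 2825 and 2056 in mut rescue, 78.7, 98.05 and 121 in wt rescue and 86.9, 117 and 90.1 in WT. The GAS41-KO mean was 59.2-fold that of WT (log2 change 4.71 with SE 0.10, adjusted p = 3.06e-15). IFI27, its relative, had 1940.5, 1888 and 1948 in GAS41-KO, 643, 775 and 559 in mut rescue, 10.96, 8.34 and 6.19 in wt rescue and 8.59, 3.78 and 9.49 in WT, 264-fold higher in GAS41-KO (log2 change 4.30 with SE 0.08, adjusted p = 1.21e-15). Both genes had WT and wt rescue libraries that overlapped. The neighbours IFI44 and IFI44L, whose products limit virus growth by routes still debated, stood at 311 ± 27.00 and 50.8 ± 6.76 in GAS41-KO, against 5.06 ± 1.45 and 0.316 ± 0.548 in WT (SD, n = 3 each). IFI35, which forms a complex with NMI, was 3.62-fold higher and EPSTI1 14.1-fold higher. XAF1, an antagonist of the apoptosis inhibitor XIAP, changed least on the log2 scale though not in fold, with 53.9, 74.2 and 69.1 in GAS41-KO, 32.9, 24.9 and 41.2 in mut rescue, 6.97, 5.22 and 5.16 in wt rescue and 21.0, 13.2 and 10.4 in WT, 4.42-fold higher in GAS41-KO (log2 change 0.66 with SE 0.07, adjusted p = 1.33e-06).

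Of the remaining genes, LGALS3BP encodes a secreted galectin-binding glycoprotein and PLSCR1 a membrane lipid scramblase with antiviral action. LGALS3BP had 13773, 14846 and 14614 normalized reads in GAS41-KO, 9770.0, 11960.4 and 9247 in mut rescue, 5251, 5575 and 5738 in wt rescue and 4344, 4732 and 4609 in WT, 3.16-fold higher in GAS41-KO than in WT (log2 change 1.63 with SE 0.08, adjusted p = 9.22e-11). PLSCR1 had 1491, 1478 and 1487 in GAS41-KO, 904, 921 and 952 in mut rescue, 485, 463 and 565 in wt rescue and 534, 482 and 457 in WT, 3.03-fold higher (adjusted p = 7.45e-11). TRIM21, the cytosolic antibody receptor, was 2.44-fold higher. TRIM14, an adaptor of the mitochondrial sensor complex, had the narrowest fold, with 1611, 1739 and 1773 in GAS41-KO, 1482, 1529 and 1458 in mut rescue, 1081, 1290.3 and 1166 in wt rescue and 1110.3, 1152 and 1063 in WT. It was 1.54-fold higher in GAS41-KO (log2 change 0.56 with SE 0.07, adjusted p = 2.76e-06), and its GAS41-KO and WT libraries did not overlap.

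Genes with and without a match to the response element core in a window both rose in GAS41-KO. Among tested genes with a promoter window, the 29 with a match had a median log2 change of 1.47 (range 0.56 to 4.71). The 11 with no exact match had 1.18 (range 0.51 to 3.32). OAS1, HELZ2 and CMPK2 are among the 11. The search does not see an element with other spacing or outside the windows, so the 11 are not shown to lack one. No test was made of this difference. Neighbouring genes on a chromosome were common in the list, with 13 adjacent pairs, and their levels could differ widely, as for IFI44 and IFI44L.

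With normal GAS41 put back, the effectors returned to near the unedited level. In wt rescue over GAS41-KO, 0 genes were higher and 47 of 47 lower, where 33% of all tested genes were called higher and 33% lower. Without the 7 genes that entered the test through the lines in which they were high, 40 of 40 were lower. Over the 47 genes the median was -1.60 on the log2 scale, and the 3 wt rescue libraries lay below the 3 GAS41-KO libraries for each of the 47 genes, as for 34% of all tested genes. IFI6 averaged 99.2 ± 21.1 normalized reads in wt rescue and 5800.0 ± 273 in GAS41-KO, 58.5-fold lower (log2 change -4.71 with SE 0.10, adjusted p = 5.20e-15). IFIT1 was 42.8-fold lower (log2 change -3.89 with SE 0.07, adjusted p = 6.82e-16), SAMD9 22.4-fold lower and PARP9 10.6-fold lower. IFI44L had no read in the 3 wt rescue libraries. TRIM25 and TRIM14 fell least, 1.39-fold and 1.45-fold (adjusted p = 1.22e-05 and 8.47e-06). YEATS4 stood at 3253 ± 323 in wt rescue, 5.26-fold above WT.

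In the line with the YEATS domain substitutions, most effectors were lower than in GAS41-KO and still above WT. In mut rescue over GAS41-KO, 0 genes were higher and 41 of 47 lower, where 5.92% of all tested genes were called higher and 9% lower. The change had a median of -0.54 on the log2 scale over these genes and 0.01 over all tested genes, and without the 7 genes named above 35 of 40 were lower. BST2, with 93.7 ± 4.69 normalized reads in mut rescue and 330.0 ± 15.4 in GAS41-KO, fell 3.52-fold (log2 change -1.09 with SE 0.06, adjusted p = 1.18e-08). IFI27 had the largest fall on the log2 scale, 2.92-fold (log2 change -1.37 with SE 0.08, adjusted p = 1.70e-08), and IFITM1, PARP10 and IFI44 fell 3.16-fold, 3.13-fold and 3.24-fold. The 6 genes not called were IFIT5, OAS2, DDX60L, TRIM14, TRIM25 and EIF2AK2, whose folds ran from 1.11 to 1.62 lower with adjusted p from 0.0806 to 0.382. Their groups did not overlap except for OAS2, so that mut rescue lay below GAS41-KO in 46 genes, as it did for 16.8% of all tested genes. Calls of PML, SP100, ISG20 and ADAR were each lost when 1 library was left out. Within mut rescue, replicate 2 was the highest library for IFI6, IFITM3, ISG15 and PML and the lowest for IFIT1, SAMD9 and DDX60.

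How far mut rescue stood between the WT mean (0%) and the GAS41-KO mean (100%) was read on normalized reads for each tested gene. The median was 47.7%, and 44 of 47 genes lay between 25% and 75%. EIF2AK2 (77.1%), TRIM25 (72.3%) and DDX60L (70.0%) stood nearest GAS41-KO, and BST2 (4.72%), CMPK2 (23.6%) and PARP14 (25.3%) nearest WT. IFIT1 stood at 51.6%, ISG15 at 55.2%, IFI6 at 40.7% and IFI27 at 34.0%. The same reading for wt rescue had a median of -1.47% and ran from -30.6% for CMPK2 to 24.6% for TRIM25. These shares use the same WT and GAS41-KO libraries for every gene and carry no test. They depend on the scale, and on a log scale the shares and the order of the genes would differ. OAS1 stood at 35.5% for mut rescue here, though its fold over WT was 109 in mut rescue and 306 in GAS41-KO.

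**Figure D3:**
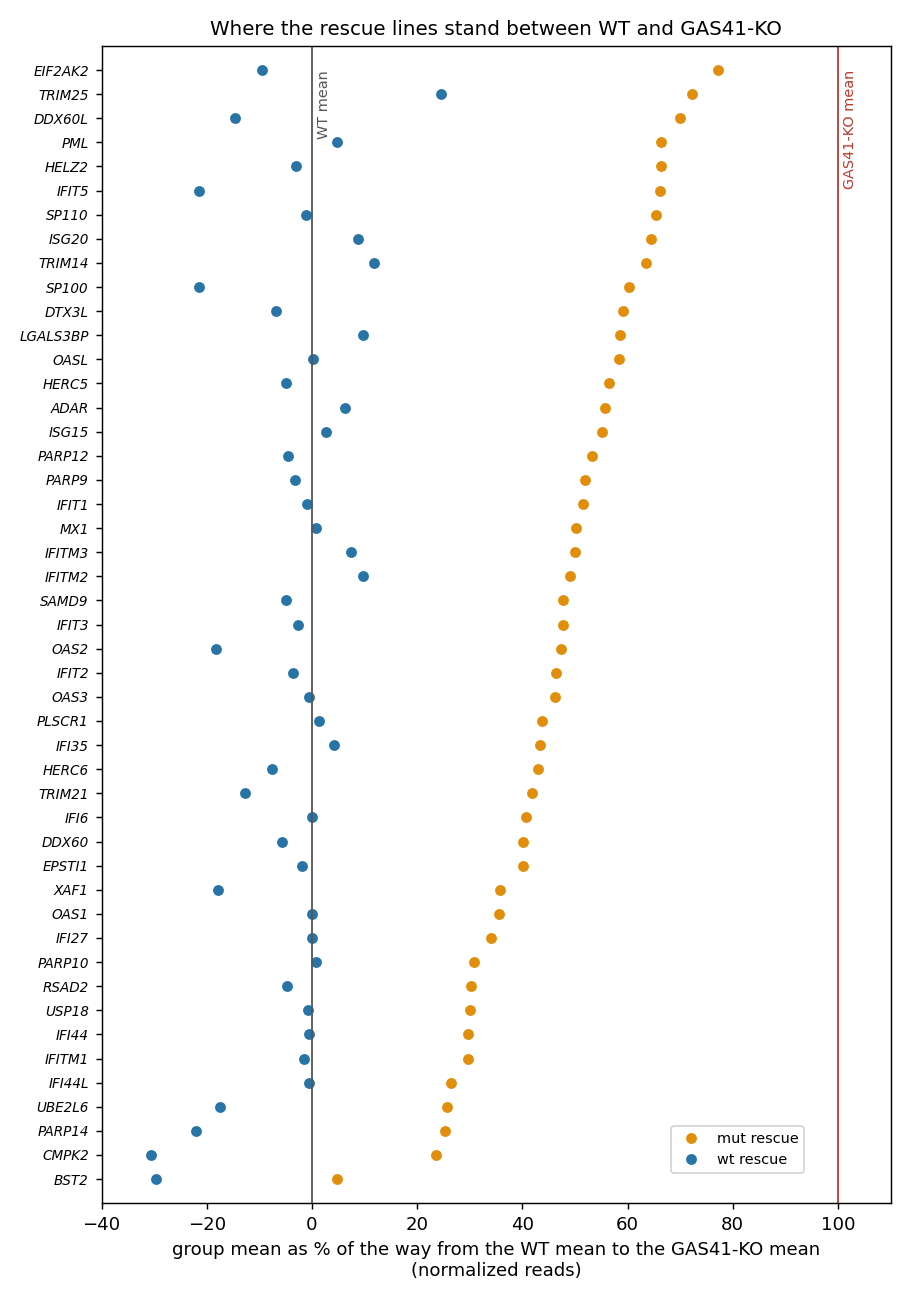
Mean of mut rescue and of wt rescue as a percentage of the way from the WT mean to the GAS41-KO mean in normalized reads (x axis) for the 47 tested effector genes (y axis), ordered by mut rescue. Mut rescue runs from 4.72% for BST2 to 77.1% for EIF2AK2, with a median of 47.7%, and wt rescue from -30.6% for CMPK2 to 24.6% for TRIM25, with a median of -1.47%.

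The direct comparison of the rescue lines gave higher effectors with the substituted protein. In mut rescue over wt rescue, 47 of 47 genes were higher and 0 lower, where 29.8% of all tested genes were called higher and 31.3% lower. All mut rescue libraries lay above all wt rescue libraries for each of the 47, as for 27.7% of all tested genes, while 0 genes lay wholly below, as for 30.2% of all tested genes. The change had a median of 1.04 on the deposited log2 scale and 1.88 with voom. Without the 7 genes that entered the test through the lines in which they were high, 40 of 40 were higher. IFI6 was 24.4-fold higher in mut rescue (log2 change 3.49 with SE 0.10, adjusted p = 2.47e-13), IFIT1 22.8-fold (log2 change 3.05 with SE 0.07, adjusted p = 3.04e-14), IFITM1 22.4-fold and PARP9 6.16-fold. TRIM25 and TRIM14 differed least, 1.24-fold and 1.26-fold (adjusted p = 0.00068 and 0.00085). The rescue lines also differed in YEATS4 itself, with 2482 ± 108 normalized reads in mut rescue and 3253 ± 323 in wt rescue, 1.31-fold lower in mut rescue (log2 change -0.37 with SE 0.07, adjusted p = 0.000443). The part of that difference in the effector levels was not tested. With wt rescue replicate 1 as the only wt rescue library, a fit whose spread comes from the other groups, OAS2 lost its call. Its log2 change was 0.26 there, against 0.31 with all 3 libraries.

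The genes given so far by their GAS41-KO and WT means stood apart in the rescue lines too (mean ± SD, n = 3 each). OAS3 averaged 5024 ± 68.7 in mut rescue and 1581 ± 114 in wt rescue, 3.18-fold higher in mut rescue, and IFIT3 averaged 205 ± 28.2 in mut rescue and 25.5 ± 3.04 in wt rescue, 8.03-fold higher. DTX3L averaged 1032 ± 71.4 in mut rescue and 281 ± 25.8 in wt rescue, 3.67-fold higher, where its partner PARP9 differed 6.16-fold and PARP12 2.65-fold. The ISG15 protease USP18 averaged 286 ± 17.4 in mut rescue and 143 ± 11.46 in wt rescue, 1.999-fold higher. Of the ISG15 conjugating genes, HERC5 differed 2.29-fold and UBE2L6 1.70-fold. The kinase gene EIF2AK2 averaged 2913 ± 371 in mut rescue and 1208 ± 64.6 in wt rescue, 2.41-fold higher, and ADAR 10129.8 ± 199 in mut rescue and 7879 ± 618 in wt rescue, 1.29-fold higher. IFI44 averaged 96.1 ± 25.3 in mut rescue and 3.08 ± 3.13 in wt rescue, 31.2-fold higher, on few wt rescue reads, and its neighbour IFI44L averaged 13.7 ± 3.23 in mut rescue and had no read in wt rescue. EPSTI1 was 8.41-fold, IFI35 1.92-fold, TRIM21 1.97-fold and ISG20 2.45-fold higher in mut rescue.

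Wt rescue was not identical to WT. In wt rescue over WT, 2 genes were higher and 17 lower, where the shares over all tested genes were 27.4% higher and 22.7% lower. Quantile normalization gave 3 higher and 10 lower, where it called 6252 of all tested genes, 56.6% of them higher. The main fit called 7267, 54.7% of them higher. The libraries of the groups did not overlap for 4 higher genes, as for 32.4% of all tested genes, and for 16 lower genes, as for 24.8%. The changes had a median of -0.11 on the deposited log2 scale and -0.29 with voom on recovered reads, which does not compress low levels. BST2 had the widest difference, with 7.97, 8.34 and 9.29 normalized reads in wt rescue, against 95.5, 85.0 and 65.5 in WT. It was 9.61-fold lower in wt rescue (log2 change -0.94 with SE 0.06, adjusted p = 4.18e-08), and a lower call was kept under each of the 13 alternatives run, as it was for DTX3L and for no other gene of the 17. DTX3L had 265, 267 and 311 in wt rescue, against 365, 356 and 354 in WT (1.28-fold lower, adjusted p = 0.00444). After BST2, the widest called folds were 2.57 lower for XAF1, 2.27 for CMPK2, 2.01 for IFITM1 and 1.999 for SAMD9 (adjusted p = 0.00108 for SAMD9). LGALS3BP was 1.21-fold higher (adjusted p = 0.0127) and TRIM25 1.14-fold higher (adjusted p = 0.028), and neither call held under all alternatives. IFI6, IFI27, OAS1, OAS3, OASL, MX1, ISG15 and USP18 were among the 28 genes not called.

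The lower values of DDX60 and IFIT5 came from wt rescue replicates 2 and 3. With replicate 1 as the only wt rescue library, their log2 changes were 0.12 and 0.0031. That fit takes the spread of the lone library from the other groups, so its counts are not given. IFIT1 and PARP9 lost their calls there with little change in size, at -0.27 and -0.23 against -0.20 and -0.25 with all 3 libraries. Without replicate 1, DDX60 fell by 0.62 on the log2 scale (adjusted p = 7.86e-06), against 0.38 with all 3 libraries (adjusted p = 0.0467). BST2 had a log2 change of -0.96 with replicate 1 alone and -0.93 without it.

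Mut rescue stayed above WT. In mut rescue over WT, 44 of 47 genes were higher and 0 lower, where 23.5% of all tested genes were called higher and 22.9% lower. Their median log2 change was 0.81 (1.25 with voom), and without those 7 genes 38 of 40 were higher. IFI6 was 24.7-fold higher (log2 change 3.49 with SE 0.10, adjusted p = 1.64e-13), IFIT1 16.5-fold (log2 change 2.85 with SE 0.07, adjusted p = 2.36e-14) and ISG15 3.07-fold (log2 change 1.46 with SE 0.09, adjusted p = 9.79e-10). The genes not called were BST2, CMPK2 and OAS2. BST2 had 92.7, 98.8 and 89.5 normalized reads in mut rescue, against 95.5, 85.0 and 65.5 in WT, and these overlapped (log2 change 0.09 with SE 0.06, adjusted p = 0.236). The mut rescue libraries lay above the WT libraries for the other 46 genes, as for 28.1% of all tested genes. Comparisons of the edited lines share libraries, so their counts are not independent of one another.

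Signalling genes upstream of the effectors were read from a list of 35, of which 28 were tested. In GAS41-KO over WT, 19 were higher and 3 lower (over all tested genes, 26% and 26.6%). In wt rescue over GAS41-KO, 4 were higher and 19 lower (over all tested genes, 33% and 33%), and in mut rescue over GAS41-KO 0 were higher and 10 lower (5.92% and 9%). Both counts of 19 include IFNE, which reached 10 reads in no WT or wt rescue library. STAT2 and IRF9, parts of the complex that binds the response element, were 2.85-fold and 6.72-fold higher in GAS41-KO than in WT. The RNA sensor genes DDX58 (RIG-I) and IFIH1 (MDA5) were 8.34-fold and 6.17-fold higher, and the factors IRF7 and IRF1 8.33-fold and 1.90-fold higher (adjusted p from 7.14e-14 to 3.24e-07 over these 6 genes). TLR3, a sensor of double-stranded RNA in endosomes, was 1.78-fold higher (adjusted p = 0.000114). The 3 lower genes, named here after their values were seen, were TMEM173, which encodes the adaptor STING (1.63-fold, adjusted p = 3.40e-06), the interferon lambda receptor gene IFNLR1 (1.43-fold, adjusted p = 0.00101) and the transcription factor gene IRF5 (1.25-fold, adjusted p = 0.0157).

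Apart from IFNE in GAS41-KO and mut rescue, the interferon genes read in the GAS41 experiment were near the floor of the data. IFNB1 was not analysed here, and IFNL1 had 1.995, 0.990 and 1.001 normalized reads in GAS41-KO, 0, 0.998 and 2.01 in mut rescue and 0 in each wt rescue and WT library. IFNE, chosen here after its values were seen as an interferon gene of the list with enough reads to test, had 34.9, 52.5 and 40.0 in GAS41-KO, 39.9, 24.9 and 29.2 in mut rescue, 3.98, 1.04 and 1.03 in wt rescue and 2.86, 3.78 and 6.64 in WT. It was 9.59-fold higher in GAS41-KO than in WT, which rests on 14 WT reads in all (log2 change 0.70 with SE 0.07, adjusted p = 6.90e-07). No WT or wt rescue library had 10 IFNE reads, so IFNE entered the test through the lines in which it was high. Of 9 colon epithelial markers, 6 were tested, and in GAS41-KO over WT 2 were called higher and 2 lower, where the shares over all tested genes were 26% and 26.6%. KRT8 was 1.36-fold (adjusted p = 0.00017) and KRT18 1.31-fold higher (adjusted p = 0.000388), and CDX2 and KRT19 were not called. CDH1 averaged 138 ± 15.1 in GAS41-KO, 163 ± 13.6 in mut rescue, 1349.8 ± 103 in wt rescue and 1419 ± 17.0 in WT, (SD, n = 3 each). EPCAM averaged 915 ± 17.0 in GAS41-KO, 1670.2 ± 162 in mut rescue, 9012 ± 782 in wt rescue and 7503 ± 348 in WT. The part of these in the effector levels was not tested.

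With doxorubicin the effectors changed in both directions. Of 42 tested genes, 21 were higher with doxorubicin than with DMSO and 5 lower, where 32.3% of all 14195 tested genes were called higher and 33.4% lower. Their median log2 change was 0.18, against -0.01 over all tested genes. The doxorubicin libraries lay above the DMSO libraries for 22 genes, as for 34% of all tested genes, and below them for 6, as for 35.2% of all tested genes. MX1, EPSTI1 and XAF1 had fewer than 3 DMSO libraries with 10 reads, and without them 19 of 39 genes were higher and 5 lower. The 9 genes not tested had at most 9 reads in a library, and they include OAS1, OAS2, RSAD2 and IFI44. YEATS4 fell to 185 ± 10.7 normalized reads with doxorubicin, against 668 ± 48.3 with DMSO (log2 change -1.25 with SE 0.07, adjusted p = 3.58e-09), and its part in these levels was not tested. The DMSO and doxorubicin libraries were sequenced on another machine than the GAS41 libraries, and levels are not compared between the experiments.

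**Figure D4:**
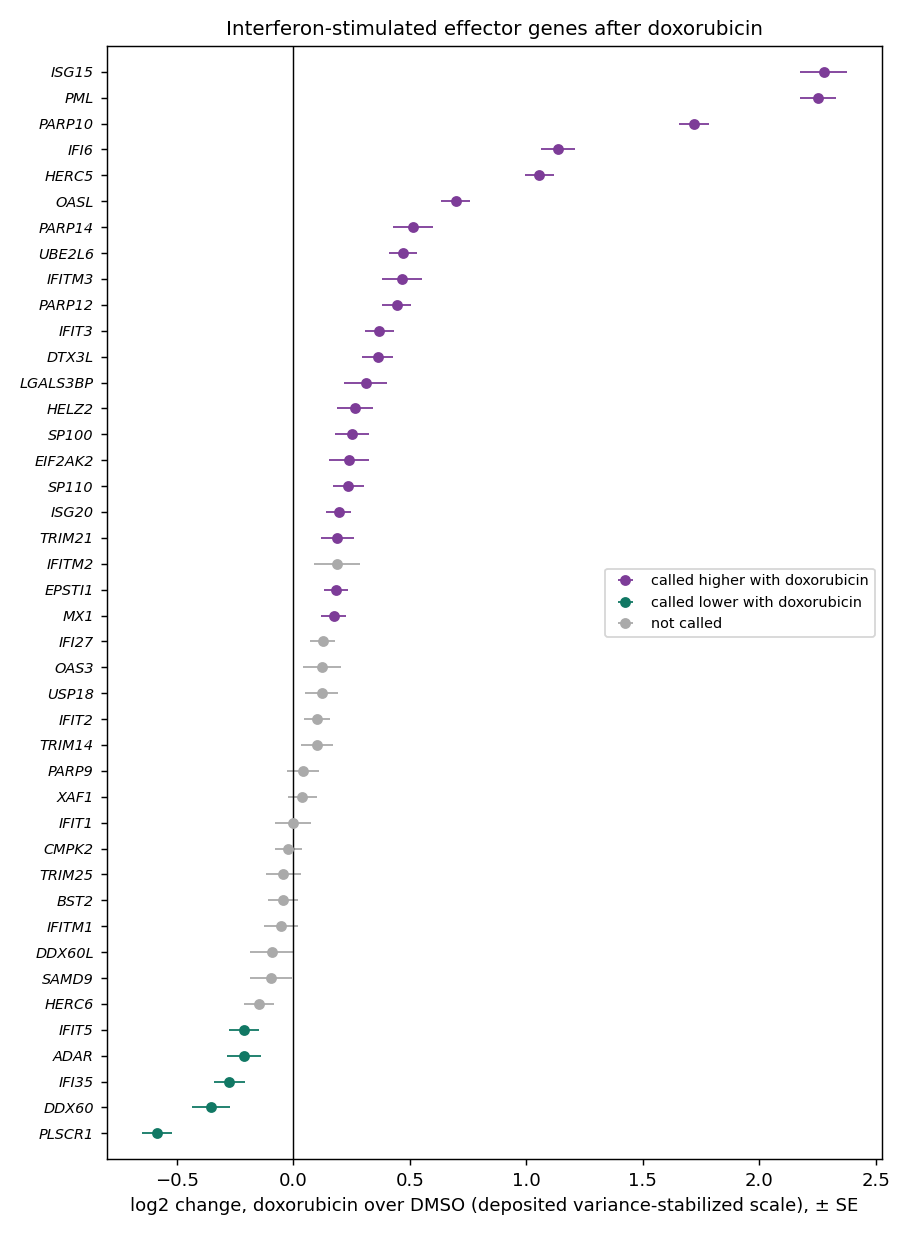
Log2 change with doxorubicin over DMSO on the deposited scale (x axis, bars: SE, n = 3 libraries per group) of the 42 tested effector genes (y axis), coloured by call. ISG15 (2.28), PML (2.25) and PARP10 (1.72) stand apart at the top, and PLSCR1 (-0.59) is lowest.

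The largest rises with doxorubicin were in 5 genes. ISG15 had 7666, 9481 and 7893 normalized reads with doxorubicin, against 1763, 1577 and 1347 with DMSO, so that every doxorubicin library stood above every DMSO library. It was 5.34-fold higher (log2 change 2.28 with SE 0.10, adjusted p = 6.56e-10). PML, also known as a p53-responsive gene, had 3622, 3678 and 3631 with doxorubicin, against 704, 582 and 555 with DMSO, 5.94-fold higher (log2 change 2.25 with SE 0.08, adjusted p = 6.29e-11). PARP10 had the widest fold, with 336, 355 and 307 with doxorubicin, against 20.3, 20.8 and 12.6 with DMSO, 18.6-fold higher (log2 change 1.72 with SE 0.06, adjusted p = 1.37e-10). IFI6 had 560.0, 688 and 611 with doxorubicin, against 205, 195 and 171 with DMSO, 3.25-fold higher (log2 change 1.14 with SE 0.07, adjusted p = 2.37e-08). HERC5, the ligase for ISG15, had 931, 839 and 861 with doxorubicin, against 336, 313 and 338 with DMSO, 2.67-fold higher (log2 change 1.06 with SE 0.06, adjusted p = 1.31e-08). None of these 5 genes, picked for their large changes, had overlapping groups, and 34% of all tested genes lay wholly higher with doxorubicin.

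Other genes rose less on the log2 scale. OASL was 2.79-fold higher, at 197 ± 15.6 with doxorubicin against 70.6 ± 9.07 with DMSO (adjusted p = 5.48e-07). IFIT3 was 2.20-fold higher, PARP14 1.57-fold, PARP12 1.53-fold, UBE2L6 1.52-fold, DTX3L 1.44-fold and IFITM3 1.405-fold. HELZ2 was 1.27-fold higher, LGALS3BP 1.24-fold and SP100 1.24-fold, and these calls held under each of the 11 alternatives run. The rises of ISG20 (1.47-fold), EPSTI1 (2.44-fold), MX1 (1.98-fold), SP110 (1.33-fold), EIF2AK2 (1.22-fold) and TRIM21 (1.22-fold) were each lost under at least 1 alternative. MX1 rests on few reads, with 19.0 ± 3.83 normalized reads with doxorubicin and 9.58 ± 1.89 with DMSO (SD, n = 3 each). By role, 4 of 5 ADP-ribosylation genes were higher, 3 of 3 tested nuclear body genes and 3 of 6 genes of the ISG15 pathway, where 32.3% of all tested genes were called higher. In the other groups the tested genes called higher were 3 of 5 (OAS and double-stranded RNA enzymes), 2 of 5 (IFI group) and 2 of 4 (remaining genes). They were 1 of 4 for IFIT, 1 of 4 for membrane proteins, 1 of 3 for helicases, 1 of 1 for MX and 0 of 1 for nucleotide enzymes and for SAMD9. These groups are too small for their counts to be read against that share.

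The genes that fell with doxorubicin were PLSCR1, DDX60, IFI35, ADAR and IFIT5. PLSCR1 had 363, 365 and 369 normalized reads with doxorubicin, against 665, 587 and 666 with DMSO, 1.75-fold lower with doxorubicin (log2 change -0.59 with SE 0.06, adjusted p = 3.57e-06). DDX60 had 98.8, 84.5 and 92.7 with doxorubicin, against 116, 169 and 186 with DMSO, 1.71-fold lower (adjusted p = 0.00183). IFI35 had 171, 206 and 169.7 with doxorubicin, against 275, 237 and 246 with DMSO, 1.39-fold lower (adjusted p = 0.00254). In these 3 genes, and in ADAR and IFIT5, all named because they were called lower, the groups did not overlap. Of all tested genes, 35.2% lay wholly lower with doxorubicin. ADAR had 6768, 6024 and 6514 with doxorubicin, against 7486, 7199.7 and 7782 with DMSO, 1.16-fold lower (adjusted p = 0.0211), and IFIT5 had 475, 507 and 495 with doxorubicin, against 583, 576 and 638 with DMSO, 1.22-fold lower (adjusted p = 0.00998). Calls of ADAR and IFIT5 were lost when some single libraries were left out, and without DMSO replicate 1 the number of lower calls was 8.

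**Figure D5:**
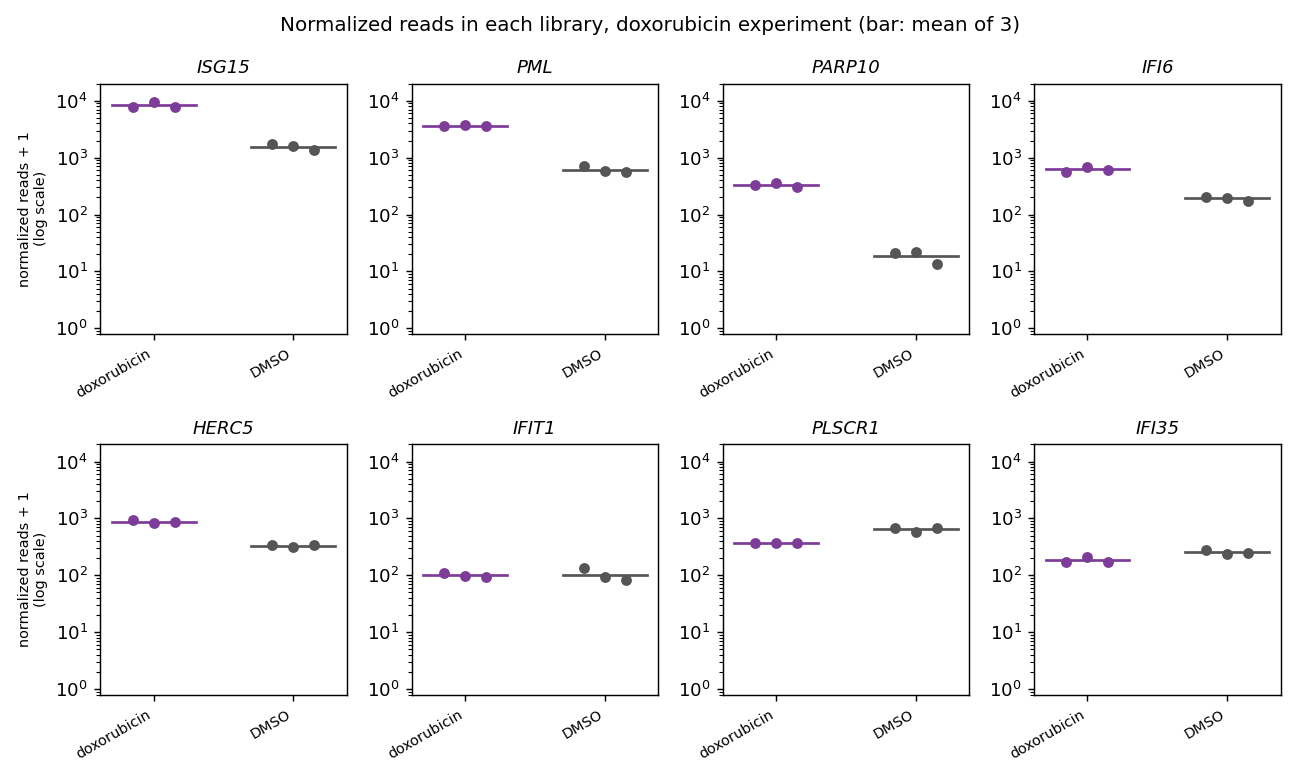
Normalized reads plus 1 (y axis, log scale) in each of the 6 libraries of the doxorubicin experiment for 8 effector genes, with doxorubicin left of DMSO, points for libraries and bars for the mean of 3. ISG15, PML, PARP10, IFI6 and HERC5 are higher with doxorubicin, IFIT1 overlaps between groups, and PLSCR1 and IFI35 are lower.

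All 47 genes tested in the GAS41 experiment were called higher in GAS41-KO, and they include each of the 21 called higher with doxorubicin. A higher call in both experiments thus sets none of the 21 apart. ISG15, IFI6 and PARP10 were among them and had wide changes in both experiments. Several other genes with wide changes in GAS41-KO were not called with doxorubicin. IFIT1, with 111, 97.7 and 93.7 normalized reads with doxorubicin, against 131, 93.3 and 81.5 with DMSO, was not called (log2 change 0.00 with SE 0.08, adjusted p = 0.99). IFI27 (log2 change 0.13 with SE 0.05, adjusted p = 0.057), IFITM1 (log2 change -0.05 with SE 0.07, adjusted p = 0.548), PARP9 (log2 change 0.04 with SE 0.07, adjusted p = 0.607) and SAMD9 (log2 change -0.09 with SE 0.09, adjusted p = 0.37) were not called either. These changes and SEs are on the deposited scale, which compresses low levels, so they set no bound on the folds. Without DMSO replicate 2, IFI27 was called higher (log2 change 0.15, adjusted p = 0.0495). BST2 had 105, 124 and 90.8 with doxorubicin, against 104, 122 and 115 with DMSO, which overlapped (adjusted p = 0.559). The 2 experiments were not put into 1 test. Of the 28 tested signalling genes, 17 were higher with doxorubicin and 6 lower, beside 32.3% and 33.4% of all tested genes. The 17 include IFNE, with 13.8, 16.3 and 14.8 normalized reads with doxorubicin, against 1.02, 1.98 and 7.76 with DMSO. IFNE entered the test only through the doxorubicin libraries, in which it was high. TLR3 was 8.46-fold higher (adjusted p = 1.30e-10), IRF1 2.39-fold, STAT2 2.30-fold, IFIH1 1.81-fold and IRF7 1.72-fold higher, while IRF9 was 1.25-fold lower (adjusted p = 0.0146) and DDX58 was not called. The summed level of the blood and immune markers was 223 to 256 with doxorubicin and 40.7 to 53.9 with DMSO, mostly ITGAM (172 ± 13.9 with doxorubicin and 8.93 ± 2.60 with DMSO), and PTPRC, which marks all white blood cells, had at most 5.92. Their part in the effector levels was not tested.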

How the data were processed

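RNA was sequenced on a BGISEQ-500 after poly-A selection (GAS41 experiment) and on an Illumina HiSeq (doxorubicin experiment), per the labels' protocols. Tools named in the submitters' processing notes, with no role, are DESeq2, HTSeq, TopHat2 2.1.0, Bowtie 1.0.1 and Trimmomatic 0.36, and the builds named are hg19 and mm9; the annotation and the use of strand are not given in the sources used here. The deposited values are variance-stabilized log2 values that the authors made from reads and size factors, as read from the values: inverting the transformation gave whole reads for 100% of values (tolerance 0.01). The scale is compressed at low levels: 39.1 normalized reads (GAS41 experiment) or 52.6 (doxorubicin experiment) raise a value by only 1 log2 over that of no reads.

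The filter asked for 10 or more recovered reads in 3 or more libraries and left 14505 and 14195 genes. Log2 differences were tested with limma 3.58.1 (R 4.3.3), its prior variance following the mean level, all 12 GAS41 libraries in 1 fit and the 6 doxorubicin libraries in another, with Benjamini-Hochberg adjustment over all tested genes and calls at an adjusted p under 0.05. Folds are ratios of mean normalized reads. Plots were drawn with Python 3.11.15 and matplotlib 3.10.9, and the fits were tested on simulated data. Alternatives were no filter, voom on recovered reads with deposited or TMM factors, quantile normalization, the replicate number as a block, 2-group fits, each library left out, and wt rescue replicate 1 alone.

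The genes, their role groups and the signalling and marker lists were chosen with earlier results of these data known. Values in every library are given for the 2 genes of each role group that changed most in GAS41-KO and the 1 that changed least, for genes called against the majority, and for the 5 largest doxorubicin changes. BST2, DTX3L, MX2, IFIT1 with doxorubicin, IFNE and single markers were given beyond this rule, after their values were seen. Promoters of IFIT2, IFITM2, OAS2, OASL, MX2, USP18, PARP10 and PML were not used here. At this depth counts of 3 or fewer per group give no fold. 1 gene of the signalling list is not reported here.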

Additional observations from a re-analysis of the deposited data

How the results depend on the processing

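Calls in GAS41-KO over WT (47 genes, 12 alternatives), wt rescue over GAS41-KO (47 genes, 13 alternatives) and mut rescue over WT (44 genes, 12 alternatives) kept direction and side of the threshold under each alternative run, as did 37 of 41 calls in mut rescue over GAS41-KO, 46 of 47 in mut rescue over wt rescue, 18 of 26 with doxorubicin, and 2 of 19 in wt rescue over WT. In wt rescue over WT the lower count of 17 became 10 with quantile normalization, where calls over all tested genes went from 7267 to 6252. Counts with wt rescue replicate 1 alone are not given, since that fit assumes the lone library varies like the other groups. In wt rescue over WT, ADAR reversed with quantile normalization (log2 change -0.16, adjusted p = 0.0129). DDX60 (log2 change 0.12) and IFIT5 (log2 change 0.0031) reversed with wt rescue replicate 1 alone. The cause was not tested. Leaving out each library in turn gave 0 to 3 higher and 11 to 16 lower in wt rescue over WT (11 lower without WT replicate 1, WT replicate 2 or wt rescue replicate 3), 39 to 42 lower in mut rescue over GAS41-KO, 44 to 45 higher in mut rescue over WT, and 20 to 21 higher and 4 to 8 lower with doxorubicin. With quantile normalization 16 genes were higher and 5 lower with doxorubicin, where 9554 of all tested genes were called, 42.4% of them higher. The main fit called 9326, 49.2% of them higher.

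Same-numbered libraries did not correlate above 0.1 in all 3 pairs of any comparison, and in none did every library correlate best with its own number, so the numbers were not taken to pair the samples. With the replicate block the counts were 47 higher in GAS41-KO over WT, 47 lower in wt rescue over GAS41-KO, 41 lower in mut rescue over GAS41-KO, 47 higher in mut rescue over wt rescue, 2 higher and 18 lower in wt rescue over WT, 44 higher in mut rescue over WT, and 21 higher and 5 lower with doxorubicin. On the unshrunk scale of voom the genes' median log2 change was 2.06 in GAS41-KO over WT, -2.44 in wt rescue over GAS41-KO, -0.78 in mut rescue over GAS41-KO, 1.88 in mut rescue over wt rescue, -0.29 in wt rescue over WT, 1.25 in mut rescue over WT and 0.29 with doxorubicin.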
